A study of Mus musculus with 5 samples.

Results

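The comparison set CD4+ regulatory T cells (CD4 Treg) of the mouse spleen against the cells labelled CD49lo, with 2 libraries on each side. Its members are the genes that reached 1 RPKM (a read number divided by the length of the gene and the depth of the library) or more in both libraries of at least 1 of these groups, which held for 11662 of the 35275 genes in the table. The whole series has 5 libraries, and the remaining one, a single library of CD8 Treg, entered the filter on low reads, the scaling and the fit, and as a group of 1 it adds nothing to the estimate of the spread. All mice were wild type C57BL/6 animals of 3 months, and per the labels a CD8 enrichment of the spleen preceded antibody staining and flow sorting. The series also names a CD8+ population that resembles effector cells, so the CD49lo libraries are the effector-like population by elimination only. The markers used in the sorts are not given in the sources used here. Whether the paired libraries of a group stem from different mice is not in the labels, so the p-values reflect only how far these samples spread, possibly for technical reasons.

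Regulatory T cells restrain other lymphocytes, and their program is held by the transcription factor Foxp3. They take up interleukin 2 through a high-affinity receptor that contains CD25 (Il2ra), and they carry inhibitory and costimulatory receptors such as Ctla4 and Tnfrsf4 (OX40). Effector CD8 T cells kill target cells with perforin and granzymes, recruit other cells with chemokines such as Ccl5, carry receptors shared with natural killer (NK) cells, and divide rapidly after they are activated.

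Promoters of 7 members are shown here, 2 of Treg genes and 5 of spindle and kinetochore genes. Kif11, Kif22 and Cdca8 were picked because they hold the motifs marked, and Nuf2 and Nusap1 because they had the largest fold changes of their list. Each line gives the 120 bases before the annotated start (RefSeq, GRCm38.p6), written 5′ to 3′ on the strand of the gene, and capitals mark the letters CCAAT (the CCAAT box, bound by NF-Y) and TTTGAA (the cell cycle homology region, or CHR, bound by the DREAM and MuvB complexes), read on either strand. The positions are chrX:7579556-7579675 (plus strand) for Foxp3, chr2:11642672-11642791 (plus strand) for Il2ra, chr19:37376262-37376381 (plus strand) for Kif11, chr7:127042421-127042540 (minus strand) for Kif22, chr4:124936918-124937037 (minus strand) for Cdca8, chr1:169531465-169531584 (minus strand) for Nuf2 and chr2:119618178-119618297 (plus strand) for Nusap1.
Foxp3: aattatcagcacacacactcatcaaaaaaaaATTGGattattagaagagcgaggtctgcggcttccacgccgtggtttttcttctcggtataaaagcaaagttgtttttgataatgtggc
Il2ra: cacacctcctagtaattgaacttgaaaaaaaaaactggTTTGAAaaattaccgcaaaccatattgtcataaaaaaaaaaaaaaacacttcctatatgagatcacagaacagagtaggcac
Kif11: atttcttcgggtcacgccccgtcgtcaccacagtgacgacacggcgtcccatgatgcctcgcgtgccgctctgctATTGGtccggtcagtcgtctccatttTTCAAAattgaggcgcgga
Kif22: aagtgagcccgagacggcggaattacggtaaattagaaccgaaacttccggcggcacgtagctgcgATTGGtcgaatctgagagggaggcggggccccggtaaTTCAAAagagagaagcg
Cdca8: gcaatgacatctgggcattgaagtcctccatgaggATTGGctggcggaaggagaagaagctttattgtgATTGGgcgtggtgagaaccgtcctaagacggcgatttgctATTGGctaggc
Nuf2: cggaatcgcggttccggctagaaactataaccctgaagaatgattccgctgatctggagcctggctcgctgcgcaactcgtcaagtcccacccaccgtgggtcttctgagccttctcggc
Nusap1: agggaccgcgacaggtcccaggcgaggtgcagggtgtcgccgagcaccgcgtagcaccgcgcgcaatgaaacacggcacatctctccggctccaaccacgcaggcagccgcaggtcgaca
The stretches of Kif11 and Kif22, motor proteins of the mitotic spindle, hold both motifs, and that of Cdca8, a subunit of the chromosomal passenger complex, holds 3 CCAAT boxes. Those of Nuf2 and Nusap1 hold neither motif, and bases after the start are not shown. Of the 26 kinetochore and spindle genes with a sequence, 16 hold a CCAAT box in these 120 bases, 5 a CHR, 3 both and 8 neither. The same letters also occur near the Treg genes, with 1 CCAAT box before Foxp3 and 1 CHR before Il2ra, so a match describes letters and not a site in use.

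Gene expression differed widely between the groups, in both directions. Of the 11662 members, 11444 had enough reads to be tested. Genes are called at an adjusted p under 0.05 (limma, Benjamini-Hochberg over all 13298 genes tested), and 1242 members were higher and 1655 lower in CD4 Treg. Across all genes tested 22.3% were called, 9.45% as higher and 12.8% as lower. These shares are the background for the counts of calls in all gene groups below. Since p-values and members rest on the same libraries, a gene that became a member through 1 group alone had to lean that way, and the counts by class are given only as a description. The 9758 members at 1 RPKM or more in both groups held 1006 higher and 881 lower calls, the 617 members through CD4 Treg alone 236 higher calls, and the 1287 members through CD49lo alone 774 lower calls. Fold changes above 4 were found for 220 higher and 757 lower members, and fold changes above 16 for 23 and 168. In both directions most of these were members through 1 group alone, where the rule fixed the direction. Such members made up 138 of the higher and 606 of the lower calls above 4-fold, and 17 and 143 of those above 16-fold. Among members in both groups 82 higher and 151 lower calls were above 4-fold. Calls under 2-fold leaned the other way, with 641 higher and 445 lower. Genes called higher took 21.1% and 21.0% of the reads of the CD4 Treg libraries against 12.3% and 12.3% of those of CD49lo. Genes called lower took 6.76% and 6.75% against 14.9% and 15.6%.

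**Figure D1:**
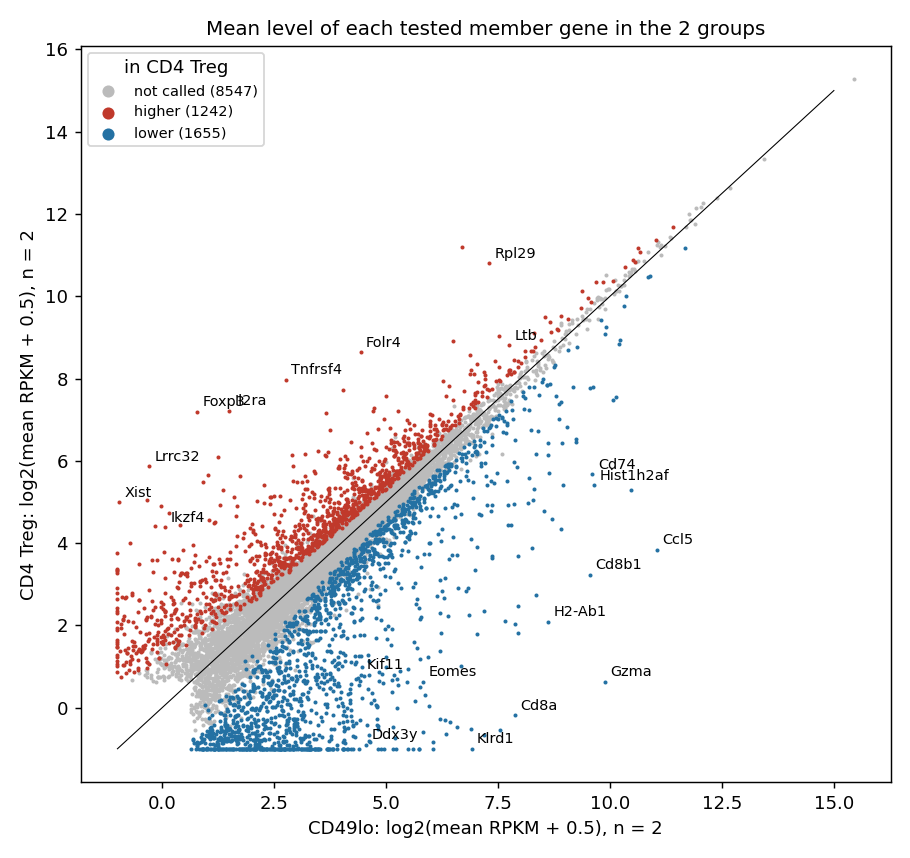
Mean RPKM of each tested member in CD49lo (horizontal axis) and CD4 Treg (vertical axis), both as log2(mean RPKM + 0.5) with n = 2 a group, and a line of equal level. The 1242 genes called higher in CD4 Treg (red) lie above the line and the 1655 called lower (blue) below it, with Foxp3 and Gzma far from it.

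At the threshold itself, Cxcr2 was just inside with 0 RPKM in both CD4 Treg libraries and 2.04 and 1 in CD49lo. Tas1r3 was just outside with 0.732 and 0.835 RPKM in CD4 Treg and 1.16 and 0.995 in CD49lo. The libraries held 5441444 to 8354971 reads in genes. In the shallowest of them a single read on 1 kilobase is worth 0.184 RPKM. The 2 replicates lay close together in each group. Among members with a mean of at least 10 RPKM in the group, the median absolute log2 difference was 0.14 in CD4 Treg and 0.18 in CD49lo. Only 47 of 5774 such genes differed by over 2-fold between the CD4 Treg replicates, and 112 of 6019 between those of CD49lo. Leaving out CD49lo replicate 1 or 2 lowered the calls to 121 and 120 higher and 317 and 412 lower over all genes, with 1 residual degree of freedom, and the counts given below for gene groups without a CD49lo library come from those fits. No gene called in both the full fit and one of these changed direction.

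Markers of other cells and the sex of the animals moved with the groups, and both belong beside every result that follows. The T cell receptor complex, with CD4 and CD8, had 4 higher, 2 lower and 9 uncalled genes of 15 (summed level 5908 and 5818 against 5281 and 5685 RPKM), and Cd3d stood at 204 and 224 RPKM in CD4 Treg against 213 and 206 in CD49lo. Of the 13 NK cell markers tested, 12 were lower in CD4 Treg (summed level 22.2 and 17.0 against 909.1 and 2502 RPKM), and Ncr1 was at 0 in both CD4 Treg libraries. This list holds genes that effector CD8 T cells use too, so it does not set NK cells apart from them. Gzma alone gave 303.9 and 1580 RPKM of the CD49lo sums. Gzma and Eomes are reported again below, from the same values. The B cell list was lower for 14 of 15 genes (555.7 and 612.7 against 3010 and 2744 RPKM), the monocyte, macrophage and neutrophil list for 15 of 16 tested (25.2 and 7.04 against 677.6 and 682.4 RPKM, with 4 of its 17 genes at 0 in CD4 Treg) and the dendritic cell list for 9 of 13 (66.1 and 52.3 against 355.9 and 384.1 RPKM, with 4 genes at 0 in CD4 Treg). None of the genes in the NK, B cell, myeloid and dendritic cell lists was called higher in CD4 Treg. The myeloid list includes Ly6c2, which was higher in the CD8 Treg library (178.4 RPKM) than in either CD49lo library (60.3 and 110.1 RPKM). Which cells its reads came from was not tested. Without CD49lo replicate 1, and then without replicate 2, 8 and 7 of the NK calls remained, 3 and 2 of the B cell calls, 2 and 4 of the myeloid calls and 4 and 5 of the dendritic cell calls. For plasma cells 3 of 6 tested genes were lower (69.3 and 66.0 against 205.0 and 178.5 RPKM), and for red cells and platelets 3 of 9 (18.5 and 5.47 against 42.9 and 81.0 RPKM). The B cell gene Pax5 had 0.299 and 0.455 RPKM in CD4 Treg and 14.52 and 17.35 in CD49lo. Lyz2, a lysozyme of myeloid cells, was at 4.20 and 1.89 against 224 and 270.6 RPKM (log2 fold change -6.17 ± 0.28, SE, as for all errors of fold changes; adjusted p = 1.51e-06). Where CD49lo is higher, more cells of a type and more RNA per cell cannot be told apart in sorted bulk samples, and the part of these markers in the other differences was not tested.

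**Figure D2:**
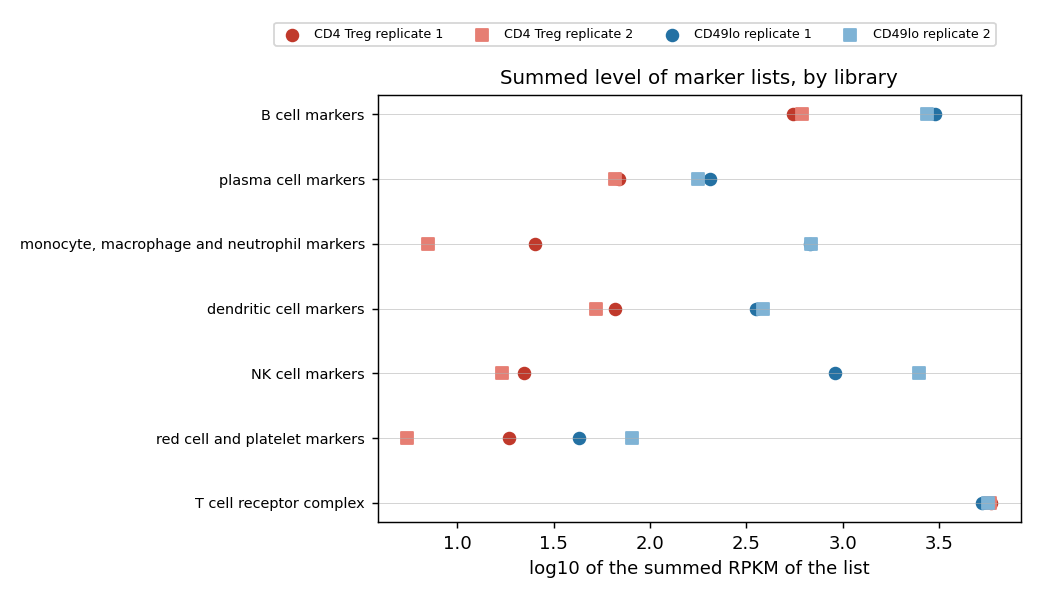
Log10 of the summed RPKM of 7 marker lists in each of the 4 libraries. The T cell receptor complex is at one level in all libraries, while the lists of other cell types are higher in both CD49lo libraries than in both CD4 Treg libraries.

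Xist, the RNA that silences 1 X chromosome in female cells, was at 35.5 and 27.2 RPKM in CD4 Treg and 0.0269 and 0 in CD49lo. Ddx3y, a helicase gene of the Y chromosome, stood at 0.0701 and 0 RPKM in CD4 Treg and 18.3 and 27.4 in CD49lo, and Uty was at 0 in both CD4 Treg libraries and at least 166-fold higher in CD49lo (floor of 3 reads over the group). Of the 7 tested genes on the Y chromosome, 6 were lower in CD4 Treg. The groups therefore did not overlap in the genes that mark sex, and sex and cell population cannot be told apart in any result here. Genes of the X chromosome as a whole were called at 7.03% higher and 8.20% lower, below the shares over all genes.

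Genes of the Treg program were high in CD4 Treg and low in CD49lo. Of 16 listed regulators and surface proteins, 15 were higher in CD4 Treg and none lower, with a median log2 fold change of 3.74 against -0.03 over all genes tested. The libraries of the groups did not overlap for these 15 genes, and over all genes tested they did not overlap for 60.2%. The exception was Swap70, a signalling protein, at 23.5 and 24.1 RPKM in CD4 Treg and 19.8 and 24.6 in CD49lo. Its log2 fold change was 0.13 ± 0.14 (adjusted p = 0.56). Foxp3 (ENSMUSG00000039521) stood at 146.3 and 145.7 against 1.66 and 0.795 RPKM, and its log2 fold change was 6.47 ± 0.26 (adjusted p = 7.76e-07). Both CD4 Treg libraries were high and both CD49lo libraries low. Il2ra stood at 142.4 and 153.6 against 2.95 and 1.69 RPKM (5.78 ± 0.22), and Lrrc32, which holds latent TGF-beta on the cell surface, at 61.3 and 54.9 against 0.345 and 0.279 RPKM (6.18 ± 0.28). Other receptors of the list were higher too. Tnfrsf4 stood at 236 and 265.7 against 6.48 and 6.01 RPKM (5.24 ± 0.18, adjusted p = 2.9e-07). Folr4, folate receptor 4, stood at 373.1 and 421.6 against 21.3 and 20.8 RPKM (4.23 ± 0.14, adjusted p = 2.4e-07), the highest level of the list. Gpr83, a G protein-coupled receptor, stood at 29.8 and 35.2 against 0.365 and 0.215 RPKM (5.39 ± 0.31). The Ikaros family factors Ikzf2 (Helios; 3.92 ± 0.13) and Ikzf4 (Eos; 4.33 ± 0.28) were also higher, as was Ctla4 (3.55 ± 0.22). Without CD49lo replicate 1, and likewise without replicate 2, 13 of the 15 calls remained.

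Genes of effector and tissue Tregs were also high. Of 21 listed genes, 17 were higher and 1 lower, with a median log2 fold change of 2.25. Penk, which encodes the precursor of the enkephalin peptides, stood at 34.3 and 42.9 RPKM in CD4 Treg and 0.991 and 3.15 in CD49lo (4.08 ± 0.47, adjusted p = 0.00025). The chemokine receptor Ccr8 stood at 10.2 and 8.90 RPKM and at 0 in both CD49lo libraries, at least 55.1-fold higher. Areg, a ligand of the epidermal growth factor receptor, stood at 4.71 and 4.14 RPKM and at 0 in both CD49lo libraries, at least 26.5-fold higher. Maf, a transcription factor of interleukin 10 producing cells, stood at 42.9 and 40.9 against 4.69 and 3.98 RPKM (3.16 ± 0.16). Genes named from a list had been picked among its called members for a large fold change, so the choice favours a gap between the groups. This holds here and in the paragraphs that follow. For the genes with the largest fold changes or RPKM differences of all members, libraries that do not overlap were a condition of the choice. Pparg, a nuclear receptor of Tregs in fat, went the other way, at 0.434 and 1.39 against 4.38 and 3.45 RPKM (-1.70 ± 0.46, adjusted p = 0.025). Irf4, Rora and Dgat2 were not called, and Rora had 5.22 and 5.51 against 4.86 and 5.48 RPKM. Without CD49lo replicate 1 there were 6 of the 18 calls left, and without replicate 2 there were 5.

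**Figure D3:**
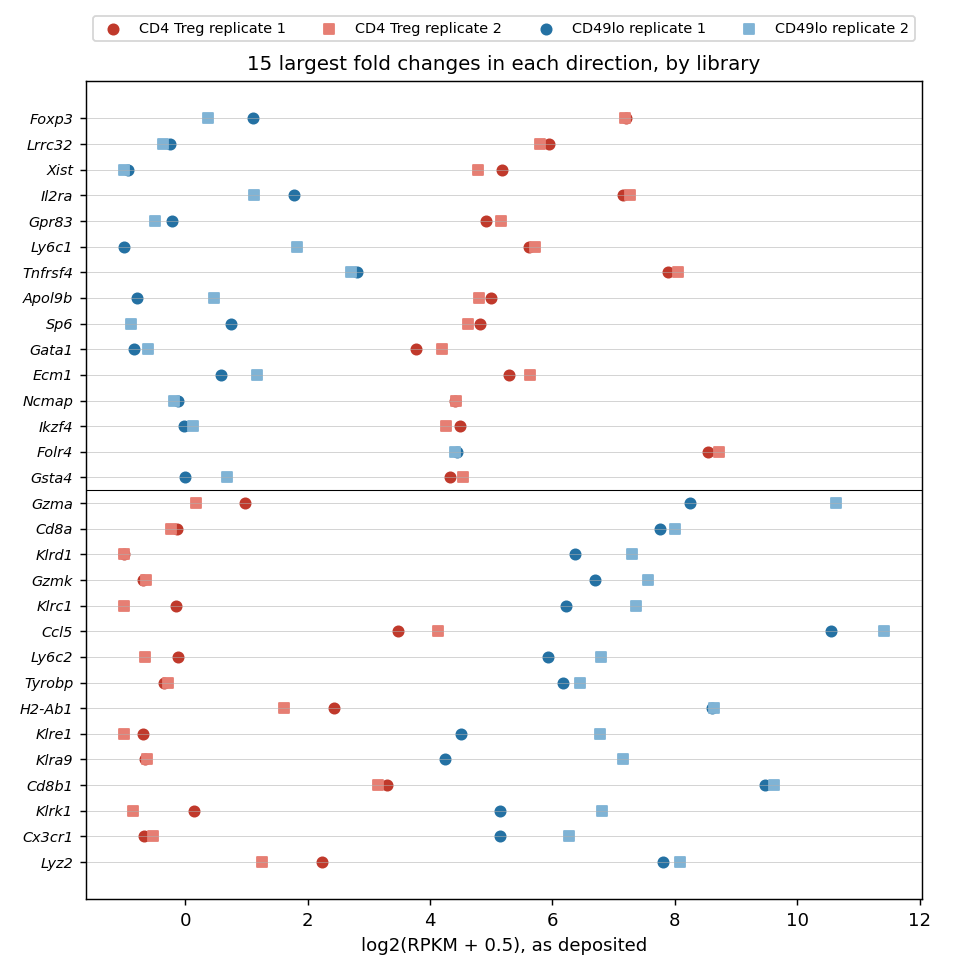
Level of the 15 genes with the largest fold changes in each direction, as log2(RPKM + 0.5) in each of the 4 libraries, with genes higher in CD4 Treg above the line and lower ones below. The genes were chosen so that the libraries of the groups do not overlap. Klra9, Ly6c1, Gzma and Klre1 spread most between the CD49lo replicates.

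Several of the genes with the largest fold changes belong to no Treg list. Apol9b, an apolipoprotein L, stood at 31.3 and 27.4 RPKM in CD4 Treg and 0.0775 and 0.887 in CD49lo (5.06 ± 0.50, adjusted p = 0.00011). Ecm1, a secreted matrix protein, stood at 38.8 and 49.0 against 1.01 and 1.76 RPKM (4.59 ± 0.31), Ncmap at 20.6 and 20.9 against 0.419 and 0.381 RPKM (4.57 ± 0.38), and the glutathione transferase Gsta4 at 19.5 and 22.7 against 0.5003 and 1.114 RPKM (4.10 ± 0.42). Sp6, a zinc finger factor, was uneven in CD49lo, with 27.7 and 24.2 against 1.19 and 0.0421 RPKM (4.78 ± 0.50). Where a gene had only 1 to 3 reads in the lower group, its values are given without a fold. Gata1, known as the master regulator of red cells, stood at 13.2 and 17.9 RPKM in CD4 Treg and 0.0629 and 0.160 in CD49lo, while of the red cell genes Hba-a1 was at 5.77 and 0 against 14.04 and 27.68 RPKM. The paired Ly6 genes went in opposite directions, with Ly6c1 at 48.5 and 51.8 against 0 and 3.07 RPKM (5.26 ± 0.75) and Ly6c2 at 0.421 and 0.137 against 60.3 and 110.1 RPKM (-6.71 ± 0.30). These neighbours on chromosome 15 are near-identical copies, so how reads were divided between them is uncertain. Without a filter on low values the calls of Apol9b, Sp6 and Ly6c1 were lost (adjusted p = 0.0589, 0.0798 and 0.139, limma). With CD49lo replicate 1 or replicate 2 left out, log2 fold changes were 4.45 and 5.68 for Apol9b and 5.60 and 3.97 for Sp6. They were 3.86 and 6.65 for Ly6c1 and 3.76 and 4.43 for Gsta4.

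The 15 largest fold changes toward CD49lo included 2 granzymes, 5 NK receptor genes and both CD8 chains. Gzma (granzyme A, ENSMUSG00000023132) stood at 1.47 and 0.628 RPKM in CD4 Treg and 303.9 and 1580 in CD49lo (-8.83 ± 0.61, adjusted p = 1.35e-05). The Gzma call was lost under limma-voom (adjusted p = 0.0876), without a filter (0.0625) and without CD49lo replicate 2 (0.0532), with log2 fold changes of -7.66 to -9.25 there. Ccl5 stood at 10.6 and 17.1 against 1501 and 2738 RPKM (-7.16 ± 0.27). Klrd1, the CD94 receptor chain, had no read in either CD4 Treg library against 81.9 and 157.3 RPKM, at least 410-fold lower. Gzmk (granzyme K) stood at 0.124 and 0.141 RPKM, 1 read in each library, against 102.6 and 188.1. Tyrobp, the signalling adaptor DAP12, stood at 0.286 and 0.326 against 71.3 and 86.4 RPKM. Both CD49lo libraries were high for each of these genes, and those of CD4 Treg at or near 0 except for Ccl5. The CD8 chains followed, with Cd8a at 0.412 and 0.352 against 215 and 254.6 RPKM (-8.02 ± 0.15) and Cd8b1 at 9.32 and 8.42 against 712.1 and 785 RPKM (-6.29 ± 0.12, adjusted p = 7.3e-09). Cd4 was higher in CD4 Treg (201.4 and 218.6 against 16.5 and 15.6 RPKM, 3.69 ± 0.12), but was not at 0 in CD49lo. H2-Ab1, an MHC class II chain of antigen-presenting cells, stood at 4.93 and 2.58 against 389 and 398 RPKM (-6.56 ± 0.24), beside the B cell and dendritic cell markers given above. Of the 15 genes lower by the largest folds, 11 remained called without CD49lo replicate 1 and 10 without replicate 2.

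The transcription regulators of effector cells were lower in CD4 Treg for 9 of 18 genes and higher for 1, with a median log2 fold change of -0.53. Eomes and Tbx21 (T-bet), the T-box factors of cytotoxic cells, stood at 1.18 and 0.929 against 57.0 and 55.2 RPKM (-5.16 ± 0.16) and at 2.20 and 1.99 against 55.2 and 90.5 RPKM (-4.75 ± 0.22). Zeb2 stood at 0.283 and 0.222 against 16.01 and 38.4 RPKM (-5.04 ± 0.34), and Id2 at 19.3 and 23.4 against 189.1 and 231.7 RPKM (-3.24 ± 0.16). Tox was the member that was higher, at 26.3 and 27.6 against 20.6 and 11.7 RPKM (0.80 ± 0.23, adjusted p = 0.036). Prdm1 (Blimp-1) was not called, at 8.36 and 8.46 against 5.05 and 7.41 RPKM (adjusted p = 0.17). Without CD49lo replicate 1 there were 5 of the 10 calls left and without replicate 2 there were 4.

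Secreted cytokines divided between the populations. Of 22 tested genes, 11 were higher in CD4 Treg and 8 lower. Those higher included the TNF family members Ltb, Lta and Tnfsf11 and the growth factor Csf1. Csf1, the macrophage colony-stimulating factor, stood at 13.9 and 16.1 against 1.118 and 1.094 RPKM (3.28 ± 0.27, adjusted p = 3.4e-05). Tnfsf11 (RANKL) stood at 15.7 and 19.5 against 2.20 and 3.20 RPKM (2.53 ± 0.32), and Il10 at 4.80 and 7.01 against 0.366 and 0.930 RPKM (2.52 ± 0.46). Those lower were chemokines and effector cytokines. Fasl, the death ligand, stood at 1.42 and 0.760 against 20.9 and 48.3 RPKM (-4.35 ± 0.39), Ccl4 at 1.71 and 0.557 against 24.8 and 49.4 RPKM (-4.51 ± 0.47), and Ifng at 1.60 and 1.37 against 11.8 and 31.4 RPKM (-3.29 ± 0.45). Ccl3 had no read in CD4 Treg against 5.78 and 13.3 RPKM, at least 27.1-fold lower. The interleukins Il17a and Il4 and the factor Csf2 had too few reads to be tested. In the fits without a CD49lo library, 4 of the 19 calls remained with either library left out.

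The machinery of cell division was lower in CD4 Treg almost throughout. Of 31 kinetochore and spindle genes, 30 were lower and none higher, with a median log2 fold change of -2.69, and 25 of 30 replication genes were lower with a median of -1.18. Kif11 stood at 1.27 and 1.22 RPKM in CD4 Treg and 26.92 and 15.46 in CD49lo (-3.56 ± 0.27, adjusted p = 2.5e-05). Nuf2, which links microtubules to the kinetochore, stood at 0.536 and 0.535 against 15.6 and 13.8 RPKM (-3.84 ± 0.33), and Nusap1, a spindle protein, at 1.28 and 0.469 against 19.4 and 16.1 RPKM (-3.76 ± 0.34). Kif22 and Cdca8, shown above, had log2 fold changes of -2.81 ± 0.30 and -2.69 ± 0.37. Cenpn was not called, at 0.821 and 0.832 against 3.59 and 1.55 RPKM (-1.10 ± 0.47, adjusted p = 0.13). The proliferation marker Mki67 stood at 4.43 and 5.20 against 66.0 and 39.9 RPKM, so CD4 Treg was low and not at 0. Division genes also set the CD49lo replicates apart, with 29 of the 31 kinetochore genes and 26 of the 30 replication genes higher in replicate 1 than in replicate 2. Without CD49lo replicate 1 the call remained for 1 of the 30 kinetochore genes and without replicate 2 for 2, Kif11 in both, and for 0 and 1 of the 25 replication genes, while each fit without a CD4 Treg library kept at least 25 kinetochore calls.

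Replication genes differed by less than spindle genes, and some of them were abundant in CD4 Treg. The replication factor Mcm10 stood at 0.199 and 0.378 against 5.93 and 2.94 RPKM (-2.56 ± 0.42), and the histone chaperone subunit Chaf1a at 2.29 and 1.94 against 16.5 and 8.15 RPKM (-2.19 ± 0.34). Pcna, the sliding clamp, stood at 88.6 and 93.2 against 140.4 and 133.7 RPKM (-0.56 ± 0.11, adjusted p = 0.0057). Both groups thus carried it at a high level. The replicative helicase subunit Mcm6 was not called, at 34.1 and 40.3 against 55.1 and 42.3 RPKM. Recombination and Fanconi repair genes were lower for 14 of 24 and higher for none, with a median of -1.13, led by Rad51ap1 (0.577 and 0.164 against 9.48 and 2.73 RPKM). Nucleotide synthesis was mixed, with 9 of 28 lower and 2 higher. Rrm2, the regulated subunit of ribonucleotide reductase, stood at 2.50 and 3.02 against 31.98 and 21.53 RPKM (-3.02 ± 0.27), while the purine pathway enzyme Adsl was higher in CD4 Treg (22.6 and 21.6 against 17.3 and 13.9 RPKM, 0.52 ± 0.16). None of the repair or nucleotide calls remained without either CD49lo library.

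Promoter letters of the division genes differed from those of all tested genes, by motif and by list, as a description with no test. Windows of 250 bases before to 50 after the start were found for 9716 of the 13298 tested genes, and both strands were read. The CHR letters (TTTGAA) were in 65.4% of the windows of 26 kinetochore genes, against 12.1% over the tested genes. They were in 18.2% of the lower members, 10.4% of the higher members and 17.9% of all 32851 promoters of the table. Among the replication windows the CHR share was 16.7% (4 of 24). It was 33.3% (4 of 12) for the Treg regulators and surface proteins and 23.1% (3 of 13) for the effector and tissue Treg genes. The CHR letters were thus not particular to division genes. Of the 26 kinetochore windows 17 held a CHR, while the 120 bases before the start held one in 5. The windows also cover bases after the start, which the printed stretches leave out. The CCAAT letters were in 69.2% of the kinetochore windows and 58.3% of the 24 replication windows, against 38.9% over the tested genes and 37.4% of all promoters. An E2F site (TTTCCCGC) was in 25.0% of the replication windows, 3.85% of the kinetochore windows, 2.26% of tested genes and 1.07% of all promoters. None of the 3 motifs contains another, partial overlaps were not set apart, and the median GC content was 58.7% in the kinetochore windows and 60.7% over the tested genes.

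**Figure D4:**
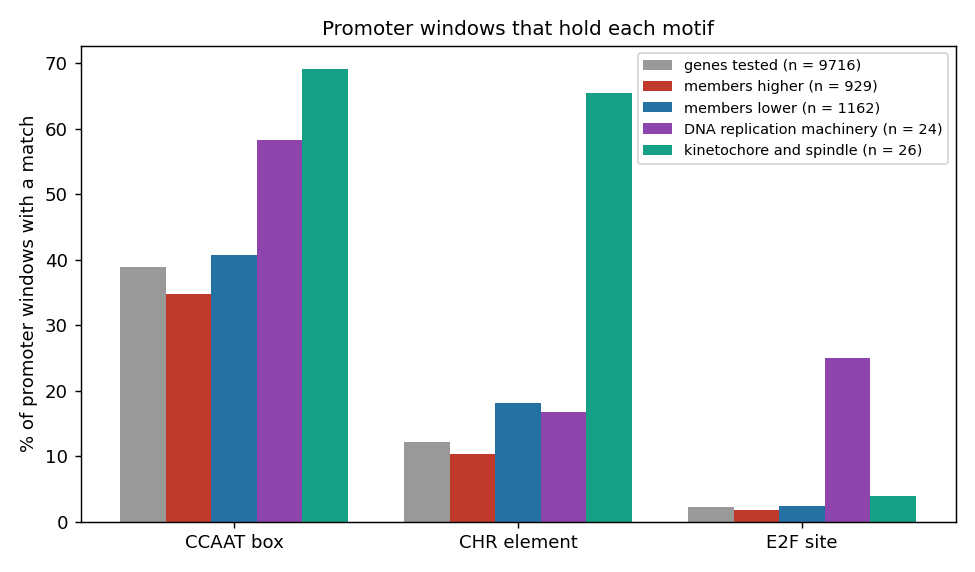
Share of promoter windows with at least 1 match to the CCAAT box, the CHR element and an E2F site, for all tested genes, members called in each direction and 2 gene lists. The kinetochore list stands at 65.4% for the CHR and the replication list at 25.0% for E2F.

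Histone genes of the Hist1 cluster on chromosome 13 were lower in CD4 Treg, a family chosen after its values were seen. Of 51 tested genes, 49 were lower and none higher (median log2 fold change -2.71). Hist1h2af stood at 42.02 and 41.91 RPKM in CD4 Treg and 841.7 and 754.8 in CD49lo (-4.21 ± 0.14, adjusted p = 2.6e-07). The linker histone Hist1h1c stood at 507.8 and 412.3 against 1117 and 1224 RPKM (-1.33 ± 0.12). Histone genes are near copies of each other, so the share of reads of each is uncertain. Most histone messages lack a poly(A) tail, and how RNA was selected for the libraries is not given in the sources used here.

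Signalling enzymes moved in both directions. Of 26 genes of PI3K, AKT and mTOR signalling, 8 were higher and 5 lower. Those higher included phosphatases. Inpp4b, which removes a phosphate from PI3K products, stood at 135.6 and 158.6 against 43.6 and 32.6 RPKM (1.97 ± 0.15). Inpp5f stood at 32.8 and 33.5 against 7.31 and 9.14 RPKM (1.98 ± 0.16), and Phlpp1, an AKT phosphatase, at 8.67 and 7.91 against 3.94 and 2.81 RPKM (1.22 ± 0.22). Tbc1d4, an AKT substrate that controls glucose transporter traffic, stood at 23.1 and 27.7 against 5.93 and 5.59 RPKM (2.07 ± 0.16). Those lower included both chains of the gamma form of PI3K, Pik3cg (9.69 and 9.45 against 17.3 and 20.6 RPKM, -0.92 ± 0.14) and Pik3r5 (18.7 and 18.5 against 49.5 and 49.0 RPKM, -1.36 ± 0.11). Pik3ap1, an adaptor of B cells, stood at 1.73 and 1.12 against 35.6 and 52.8 RPKM (-4.50 ± 0.25), beside the B cell markers given above. Without CD49lo replicate 1 there were 4 of the 13 calls left and without replicate 2 there were 3.

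Brakes of the antigen receptor gave 7 higher and 3 lower genes of 24, with a median of 0.21. Spry1, an inhibitor of Ras signalling, stood at 8.37 and 10.2 against 3.02 and 1.37 RPKM (1.94 ± 0.42), and Ubash3a at 51.7 and 52.1 against 28.4 and 33.9 RPKM (0.76 ± 0.13). The phosphatases Ptpn6 (SHP-1; 132.4 and 116.9 against 187.9 and 206.5 RPKM, -0.63 ± 0.11) and Ptpn22 (65.1 and 71.1 against 104.5 and 114.8 RPKM, -0.66 ± 0.11) were lower. None of these 10 calls remained without either CD49lo library. Lipid second messenger enzymes gave 8 higher and 6 lower of 22. The T cell protein kinase C form Prkcq was higher by little (120.1 and 119.9 against 98.6 and 98.6 RPKM, 0.31 ± 0.09), and Prkca by more (23.5 and 23.9 against 11.4 and 10.9 RPKM, 1.08 ± 0.12). Plcg2, the phospholipase of B and myeloid cells, was lower (0.488 and 0.257 against 16.5 and 19.6 RPKM, -4.39 ± 0.26) beside the markers of those cells. Of these 14 calls, 1 remained in each fit without a CD49lo library.

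Channels and purine receptors differed in both directions, with 6 higher and 7 lower of 25. P2rx7, the ATP-gated channel, stood at 33.5 and 35.6 against 4.80 and 5.52 RPKM (2.66 ± 0.15, adjusted p = 5.8e-06). The potassium channel of effector memory T cells, Kcna3, stood at 39.9 and 40.3 against 20.3 and 16.6 RPKM (1.13 ± 0.17). Nt5e (CD73), which makes adenosine outside the cell, was among the Treg genes at 69.0 and 78.4 against 11.4 and 13.7 RPKM (2.54 ± 0.14). Store-operated calcium entry was divided by subunit, with Orai1 (0.70 ± 0.21) and Stim2 (0.76 ± 0.14) higher and Orai2 (-0.54 ± 0.15) lower. Kcnj8, a subunit of ATP-sensitive potassium channels, had no read in CD4 Treg and 9.46 and 45.6 RPKM in CD49lo, at least 215-fold lower. Of these 13 calls, 2 remained in each fit without a CD49lo library.

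Other receptors differed by member. Of 30 tested G protein-coupled receptors outside the chemokine family, 6 were higher and 10 lower. The prostaglandin E2 receptors Ptger2 (6.91 and 7.48 against 1.07 and 1.53 RPKM, 2.12 ± 0.32) and Ptger4 (35.1 and 39.8 against 16.9 and 24.0 RPKM, 0.90 ± 0.17) were both higher, as was P2ry10, a receptor of lysophospholipids (106.2 and 108.8 against 41.7 and 43.5 RPKM, 1.35 ± 0.11). Of the 16 calls, 6 remained in each fit without a CD49lo library. Semaphorins and their receptors gave 4 higher and 4 lower of 15. The paired receptors were opposed, with Nrp1, a surface marker of thymic Tregs, at 64.8 and 78.6 against 9.16 and 8.18 RPKM (3.00 ± 0.15) and Nrp2 at 0.288 and 0.191 against 2.67 and 4.24 RPKM (-2.36 ± 0.31). The ligand Sema4a was lower (4.13 and 3.73 against 48.5 and 59.0 RPKM, -3.58 ± 0.15), and 2 of the 8 calls remained without either CD49lo library.

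Nuclear receptors, clock genes and chromatin regulators held smaller differences. Rarg, the gamma receptor of retinoic acid, stood at 35.7 and 36.2 against 8.71 and 7.94 RPKM (2.07 ± 0.16), while Rara was not called (31.2 and 29.5 against 33.2 and 34.2 RPKM). In all 6 of 22 nuclear receptors were higher and 2 lower. Clock genes gave 4 higher and none lower of 17, a total near the 22.3% called in either direction over all genes tested. Those called were led in level by Dbp (16.04 and 22.09 against 8.76 and 5.71 RPKM, 1.37 ± 0.27) and Per1 (15.98 and 14.2 against 9.25 and 10.1 RPKM, 0.64 ± 0.15). Hours of collection are not given in the labels. DNA methylation and Polycomb genes gave 4 in each direction of 24. Uhrf1, which brings DNA methylation to replicated DNA, was lower (4.81 and 2.97 against 32.6 and 25.5 RPKM, -2.74 ± 0.24), as was the histone methyltransferase Ezh2 (16.2 and 15.3 against 44.5 and 40.0 RPKM, -1.37 ± 0.15). Kdm6b, the demethylase of the mark that Ezh2 sets, was higher (33.5 and 29.4 against 15.4 and 14.1 RPKM, 1.09 ± 0.13). Of the calls in these 3 lists, Rarg alone remained called without CD49lo replicate 1 and also without replicate 2.

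Lysosomal proteases and their inhibitors leaned toward CD49lo, with 13 of 21 serpins and cathepsins lower and 1 higher (median -0.98). Ctsh stood at 0.118 and 0.268 against 15.4 and 17.4 RPKM (-4.58 ± 0.34), and Ctsd at 109.4 and 104.2 against 277.1 and 322 RPKM (-1.45 ± 0.11). Serpinb9, an inhibitor of granzyme B, was present in both groups (10.03 and 11.59 against 21.0 and 35.4 RPKM, -1.27 ± 0.22). Ctss went the other way (353.8 and 386.8 against 250.5 and 296.6 RPKM, 0.47 ± 0.11, adjusted p = 0.014). Of the 14 calls, 2 remained without CD49lo replicate 1 and 3 without replicate 2. Actin and adhesion adaptors gave 3 higher and 9 lower of 26, from Capg (154.2 and 156.2 against 27.5 and 24.2 RPKM, 2.59 ± 0.15) to Myo1f (13.5 and 11.9 against 95.6 and 96.4 RPKM, -2.85 ± 0.12). Coro1a was abundant and not called (1094 and 1145 against 1108 and 1147 RPKM, 0.02 ± 0.09). Of the 12 actin calls, 2 and 3 remained without CD49lo replicate 1 and without replicate 2.

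Some housekeeping pathways gave few calls and others as many as all genes or more. Only 1 of 20 aminoacyl-tRNA synthetases (Gars, -0.72 ± 0.15) and 2 of 20 proteasome genes were called, with medians of -0.13 and -0.11. The other 4 lists gave between 3 and 9 calls. Cholesterol synthesis gave 3 higher and none lower of 22. Fatty acid genes gave 1 higher and 4 lower of 24, and Scd1, a desaturase, stood at 0.367 and 0.0380 against 10.8 and 16.6 RPKM (-4.31 ± 0.35). Transporters of amino acids and other nutrients gave 4 higher and 5 lower of 22, and Slc16a1, a lactate transporter, was lower (5.21 and 3.70 against 12.4 and 13.4 RPKM, -1.42 ± 0.19). Redox enzymes gave 2 higher and 6 lower of 25, with Hmox1, known in macrophages, at 7.43 and 4.12 against 64.5 and 37.1 RPKM (-3.00 ± 0.31). No call in these 6 lists remained without either CD49lo library. Among the most abundant members, those nearest to no change were Srp14, Hmha1, Eif3k, mt-Nd2 and Hnrnpa2b1. Their log2 fold changes all rounded to 0.00, and Hmha1 for one stood at 264 and 260.1 against 256.4 and 277.2 RPKM (± 0.09).

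**Figure D5:**
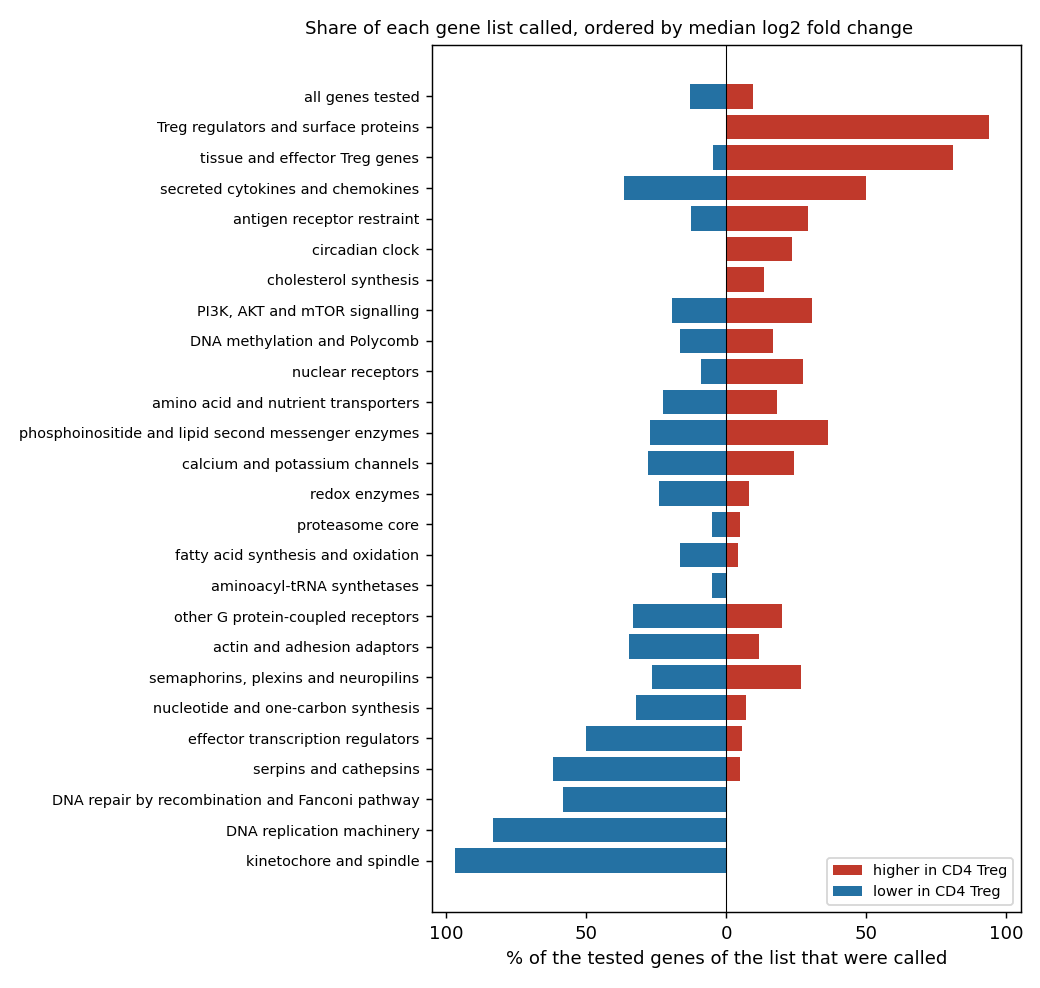
Share of the tested genes of each functional list called higher (red, to the right) or lower (blue, to the left) in CD4 Treg, in percent, ordered by median log2 fold change, with all genes tested at the top (9.45% higher, 12.8% lower). Treg lists lie at one end with 15 of 16 genes higher and kinetochore genes at the other with 30 of 31 lower.

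Ribosomal protein genes differed little, apart from Rpl29. Of 80 tested genes of this family, chosen after values were seen, 16 were higher and 2 lower, with a median log2 fold change of 0.15. Over all genes tested 9.45% were called higher and 12.8% lower. Rpl29 stood at 1724 and 1850 RPKM in CD4 Treg and 168.5 and 146.3 in CD49lo (3.53 ± 0.11, adjusted p = 2.4e-07), and at 227.3 in CD8 Treg. The next, Rps16, differed by 0.53 ± 0.09. Ribosomal protein genes have many processed copies, so reads assigned to Rpl29 may be shared with other loci. In RPKM the largest differences toward CD4 Treg otherwise came from abundant genes with small folds, such as the MHC class I chain H2-K1 (2278 and 2334 against 1429 and 1750, 0.57 ± 0.11) and the chaperone Hspa8 (1116 and 1119 against 680.7 and 637.8, 0.79 ± 0.09). Rgs10, which shortens G protein signals, combined both (473.9 and 489.1 against 91.4 and 87.3, 2.45 ± 0.11). Of the 10 largest such differences, 2 remained called in each fit without a CD49lo library.

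Some called members lay side by side on the chromosomes. Runs of at least 4 neighbouring tested members with the same call numbered 48, of which 37 were lower and 11 higher. They were looked for after values were seen. Immunoglobulin genes were in 8 of the runs and Hist1 genes in 4. How many runs the shares of calls alone would give was not tested. The longest held 42 immunoglobulin kappa genes at chr6:68049983-70726757. The NK receptor complex at chr6:129577893-131247362 gave 16 lower genes, from Klre1 to Klra2 (median log2 fold change -3.28). Klra genes are near copies, and their single values are uncertain. Chromosome 13, with the Hist1 genes, had 24.0% of its tested genes lower. A run of 6 lower genes on chromosome 9 held Cxcr6, Ccr1, Ccr3 and Ccr2, with Ccr2 (5.26 and 3.63 against 63.5 and 82.3 RPKM, -3.87 ± 0.18).

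Runs that were higher in CD4 Treg were fewer and shorter. One surrounded Foxp3 at chrX:7371276-7653256 and held Usp27x, Ppp1r3f, Ppp1r3fos, Foxp3 and Syp. Syp, which lies past the end of Foxp3, stood at 12.6 and 10.7 against 0.547 and 0.161 RPKM (3.86 ± 0.43), and Ppp1r3fos, which overlaps Foxp3, at 3.73 and 3.67 against 0 and 0 RPKM. Whether counting used the strand is not given in the sources used here, so reads of overlapping genes cannot be told apart. Tnfrsf4 and Tnfrsf18 shared a run of 4 genes on chromosome 4. Guanylate-binding proteins, defence GTPases induced by interferon, were higher for 7 of 8 tested genes, 4 of them in a run on chromosome 3. Gbp5 stood at 68.5 and 49.8 against 15.4 and 17.6 RPKM (1.82 ± 0.17) and Gbp2 at 86.0 and 93.6 against 27.9 and 40.0 RPKM (1.44 ± 0.16). These genes are near copies too, and their single values are uncertain. Gbp8 was not called, at 36.6 and 37.3 against 20.9 and 31.4 RPKM (adjusted p = 0.064). In the same direction Igf1r, the receptor of insulin-like growth factor 1, stood at 30.9 and 27.4 against 3.63 and 1.77 RPKM (3.30 ± 0.28).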

How the data were processed

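Spleen T cell RNA was sequenced in 5 libraries, 4 of which form the comparison. Values were deposited by the authors as RPKM per gene, and per the submitters' processing notes CASAVA, STAR and the mm10 genome were used. Versions, the read counter and its annotation are not given in the sources used here. Every RPKM value was a whole multiple of 1 read (100% within 0.02 of a whole number), so reads were recovered for the filter, for trimmed mean of M values (TMM) scaling and for limma-voom, an alternative. Of the 35275 gene identifiers, 34490 occur in GENCODE M21.

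Tested genes (13298) had 15 reads in total and, in 1 library or more, a level worth 10 reads at the median depth. A linear model was fitted in limma 3.58.1 (R 4.3.3) on log2(TMM-scaled RPKM + 0.5) with the 5 libraries as 3 groups (2 residual degrees of freedom) and an empirical Bayes prior that follows the mean log2 level per gene. The Benjamini-Hochberg adjustment of the two-sided p-values covers the tested genes. Library values in the text are as deposited, and fold changes are on the log2(RPKM + 0.5) scale, so for genes close to 0.5 RPKM or lower the added value shrinks the change. The step was also run on simulated data, with few changed genes and a constant spread. These data had many more genes called and an uneven spread, so the simulation gives no error rate for them.

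The members and the 33 gene lists were chosen with earlier results of these data known. Genes are named by rule. The 15 largest and 15 smallest fold changes at 10 RPKM or more in the higher group, and the 10 largest RPKM differences each way, came from called members whose libraries do not overlap. Receptor segments, small RNA genes, pseudogenes and predicted genes were left out there. No condition on overlap was set for the others. These are up to 5 called members of each list with the largest change, list members that went against their list or were not called, the markers, and the 5 abundant members nearest to 0. Of these, only the genes that describe a group are printed. Other genes printed (Mki67, Pcna, Prkcq, Prkca, Phlpp1, Orai2, Serpinb9, Ctsd, Ctla4, Ikzf2, Nt5e, Csf1, Tnfsf11, Il10, Lta, Ltb, Kif22, Cdca8, Pax5, Igf1r, and those of families, promoters and runs) were chosen after their values were seen. Results of some members are not reported here.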

Additional observations from a re-analysis of the deposited data

How the results depend on the processing

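The main counts were 1257 higher and 1707 lower over 13298 genes, and no gene called in both the main fit and an alternative changed sign. The counts stayed within 1.5 times for a pseudocount of 0.1 or 1, for no scaling factor, for median-of-ratios factors, for the members alone, for a prior that follows RPKM, for limma-voom and for the 4 libraries alone. Without a filter on low values, 21346 genes were fitted and 282 were higher and 422 lower. A constant prior gave 713 higher. With the replicate number as a block, 1565 were higher and 2037 lower, and same-numbered libraries did not deviate together (correlation -0.0202), so the numbers are not taken to pair the samples. Leaving out 1 replicate gave 120 to 480 higher and 317 to 979 lower: 480 and 979 without CD4 Treg replicate 1, 430 and 857 without CD4 Treg replicate 2, 121 and 317 without CD49lo replicate 1, and 120 and 412 without CD49lo replicate 2. Such a fit has 1 residual degree of freedom and assumes that the lone library varies like the others. Of 205 named genes that were called, 152, 136, 67 and 70 kept the call in these 4 fits, and 89 without a filter. Without either CD49lo replicate Fads2 was not tested. Beyond fewer libraries or more genes tested, the cause of these changes was not tested. Depth limits genes under about 1 RPKM, where 1 read moves a value.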

Other observations

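The CD49lo replicates differed from each other in cytotoxic genes and T cell receptor gamma genes, which were chosen after their values were seen. Gzma stood at 303.9 and 1580 RPKM in replicates 1 and 2, a ratio of 5.20, Klrg1 at 34.5 and 140.7 (4.08), S1pr5 at 15.1 and 57.6 (3.82) and Gzmb at 137.5 and 353.4 (2.57). The gamma receptor segment Trgv2 stood at 15.1 and 81.0 RPKM (5.38) and the constant segment Tcrg-C2 at 21.7 and 84.8 (3.92). In CD4 Treg they were at 0 and 0 and at 0.962 and 2.56 RPKM. The CD8 Treg library held 16.5 RPKM of Trgv2 and 12.8 of Tcrg-C2, and which cells carried these transcripts was not tested. In the other direction, the neutrophil granule gene Ngp stood at 28.8 and 5.13 RPKM and the mitotic genes Bub1b and Cdc20 at 20.8 and 8.51 and at 21.0 and 9.09. With 1 pair of libraries there is no test of these differences.

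Most immunoglobulin genes were lower in CD4 Treg, with a few heavy chain exceptions. Kappa genes were lower in CD4 Treg for 46 of 47 tested, and Igkc stood at 49.9 and 27.3 RPKM in CD4 Treg and 1514 and 1322 in CD49lo. Of 50 heavy chain genes tested, 41 were lower and 1 higher, with a median log2 fold change of -3.67. The mu constant gene Ighm was at 443.7 and 521.4 against 518.4 and 336 RPKM (log2 fold change 0.23 ± 0.19, adjusted p = 0.43 by limma). The diversity segment Ighd4-1 was higher in CD4 Treg, at 2154 and 2573 against 108.8 and 96.9 RPKM, from 147 and 154 against 10 and 7 reads on an annotated length of 11 bases, so its RPKM is set by that length. T cell receptor alpha and beta V segments were higher for 18 and lower for 2 of 73 tested.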
